A study of Mus musculus with 400 samples.

Results

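Sensory neurons of a pair of CGRP-expressing classes were compared within the same mice: neurons that express the itch receptor gene Mrgpra3, and neurons that express Tac1, the gene of the neuropeptide substance P. The comparison held 36 cells in the Mrgpra3 group and 86 in the Tac1 group, of 371 kept single cells. They were chosen by their values of 3 genes, in CPM, the values of a cell scaled to a total that is the same in every cell. Both groups had at least 2000 CPM of Calca, the gene of CGRP. The Mrgpra3 group had at least 50 CPM of Mrgpra3 and under 1000 CPM of Tac1, and the Tac1 group had at least 1000 CPM of Tac1 and under 50 CPM of Mrgpra3.

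The cells came from cervical dorsal root ganglia, levels C1-C8, of 6 naive mice aged 6 to 12 weeks and named Blue, Red, Control, Control1, Control2 and Control6 in the labels. All carried Nav1.8-Cre together with R26CAG-floxStop-tdTomato, given as strain Nav1.8-Cre.Ai14, and no mouse had another genotype or a treatment. Cre was driven by Scn10a, the gene of the sodium channel Nav1.8, so that both groups come from the lineage that has used this gene and neurons outside it were not sampled. Cells with tdTomato were sorted singly and frozen. Run 1 held the mice Blue and Red and run 3 the mice Control1 and Control2, while Control and Control6 had run 2 and run 4 to themselves. For Control and Control6 the mouse and the run cannot be told apart.

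Neurons of the dorsal root ganglia carry touch, pain, temperature and itch signals from the skin and deeper tissue to the spinal cord. Mrgpra3 encodes a Mas-related G protein-coupled receptor for the pruritogen chloroquine, and the C-fibre neurons that express it are known for itch. Tac1 neurons are the classical peptidergic nociceptors, which release substance P and CGRP at their central and peripheral endings. CGRP marks both classes, and the 2 groups were set side by side to see what differs between them beyond the genes that chose them.

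Mrgpra3, Tac1 and Calca were left out of every test and are given as a description. Mrgpra3 averaged 404 CPM in the Mrgpra3 group, with a range over cells of 107.8 to 1058, and the highest value among Calca cells below its threshold was 43.04. Tac1 averaged 4118 CPM in the Tac1 group, from 1233 to 9054, and the highest value below its threshold was 859. Calca averaged 5360 CPM in the Mrgpra3 group and 11272 in the Tac1 group. The lowest Calca value inside the groups was 2486 CPM for Mrgpra3 cells and 2455 for Tac1 cells. Just outside lay 1850 and 1823 CPM, and the Calca threshold left out 11 of 47 cells with Mrgpra3 and 7 of 93 cells with Tac1.

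No kept cell passed both the Mrgpra3 and the Tac1 threshold at any Calca level, 0 of 371 cells, which allows a share of up to 0.989% (exact Clopper-Pearson interval at 95%, counting error only). In the Mrgpra3 group 6 of 36 cells had any Tac1 count, the highest at 195 CPM, and in the Tac1 group 1 of 86 cells had a Mrgpra3 count, at 12.0 CPM. A further 17 Calca cells met neither threshold. By mouse, the Mrgpra3 group held 15 cells of Blue, 16 of Red, 1 of Control, 2 of Control2, 2 of Control6 and 0 of Control1. The Tac1 group held 33, 38, 4, 4, 4 and 3 cells of the same mice. The groups made up 9.70% (interval 6.89% to 13.2%) and 23.2% (18.98% to 27.8%) of kept cells. Since Control1 had no Mrgpra3 cell, the comparison rests on the other 5 mice, in which the single Mrgpra3 cell of Control stands for that mouse.

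**Figure D1:**
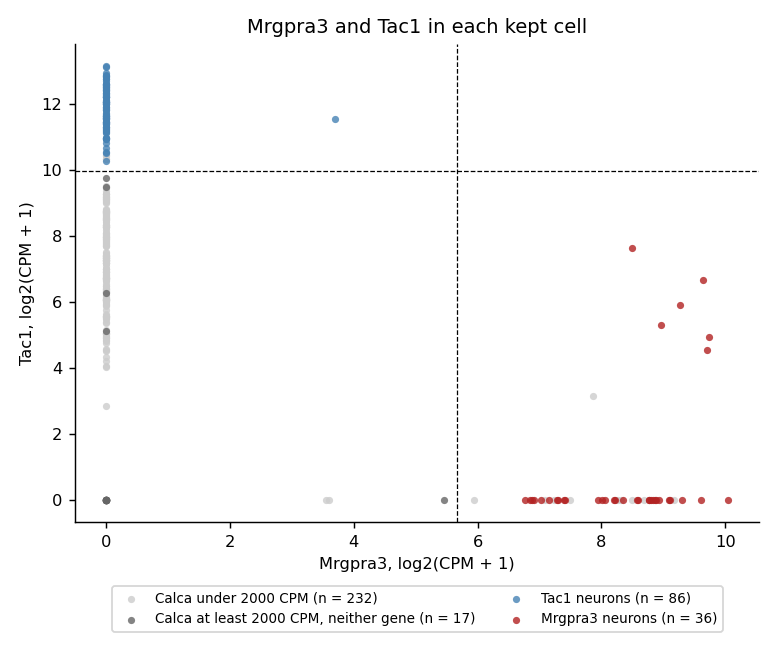
Mrgpra3 against Tac1 in each kept cell, as log2(CPM + 1) on both axes, with dashed lines at the 2 thresholds and colours for the 36 Mrgpra3 cells, 86 Tac1 cells, 17 Calca cells of neither group and 232 cells with Calca under 2000 CPM. The upper right, where both genes would be above their thresholds, is empty.

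Mrgpra3 cells had more counts in 4 of 5 mice, a difference that was not past the test. The median cell of the Mrgpra3 group had 40684 recovered counts and 7327 detected genes, against 19858.5 counts and 5705 genes in the Tac1 group. Over the 5 mice the log2 difference in median counts was 0.85 ± 0.71 (SD, n = 5), with 4 of 5 mice higher, and the exact two-sided sign-flip permutation p was 0.125. With 5 mice this test cannot go below 0.0625. The same test gave p = 0.125 for detected genes (log2 difference 0.31 ± 0.28, exact, n = 5). With cells thinned to 12833 counts, 13 of the 86 Tac1 cells had fewer and were left out. The gene test then called 1259 genes, against 1910 at full depth, both in the 5 mice without Control1.

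Both groups carried general neuronal genes at a like sum, 9327 and 9368 CPM over Snap25, Uchl1, Tubb3, Elavl4 and Stmn2. RNA of satellite glia, the cells that wrap these neurons, was present in both. The sum of 8 satellite glia markers had a median of 228 CPM per cell in the Mrgpra3 group and 300 CPM in the Tac1 group (means 863 and 1432), and it was above 1000 CPM in 8 of 36 and 30 of 86 cells. Over mice the log2 difference was −0.65 ± 2.16 (SD, n = 5; exact permutation p = 0.562). The sum of 8 Schwann cell markers averaged 835 and 485 CPM, most of it Pmp22 at 744 and 284 CPM. The satellite glia and Schwann cell sums together were above 1000 CPM in 26 of 36 Mrgpra3 cells (72.2%) and 35 of 86 Tac1 cells (40.7%), so that the shares over this level ran the other way with Schwann markers included. Leaving out these cells leaves 10 Mrgpra3 cells, of Blue and Red only, with 1309 genes called. This is what is meant below by leaving out cells high in glial markers. Most of the Mrgpra3 cells it leaves out passed 1000 CPM only with the Schwann sum, which is mostly Pmp22. The setting therefore does not separate cells by satellite glial RNA alone. Prx was at 0 in all Mrgpra3 cells. Macrophage markers summed to 4.88 and 5.32 CPM, lymphocyte markers to 0 and 1.29, and endothelial markers to 1.42 and 0. The mural cell sum was 272 against 5.53 CPM, of which Rgs5 made up 271 and 2.64 CPM. In the Mrgpra3 group the sum was thus almost all Rgs5, and the contractile markers Acta2 and Tagln were at 0.465 and 0 CPM there.

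**Figure D2:**
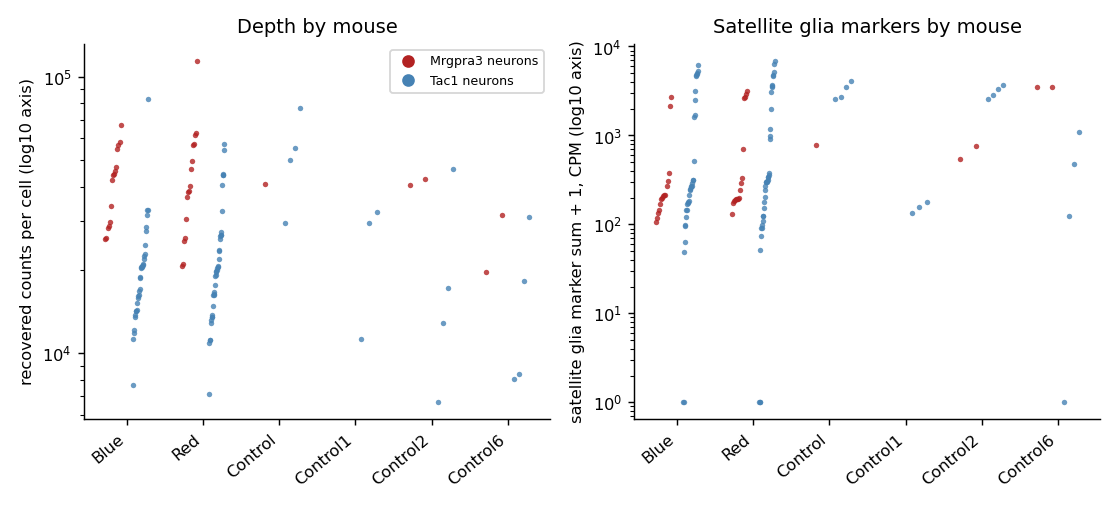
Recovered counts per cell and the summed satellite glia markers + 1 in CPM, both on log10 axes, for each cell of the 2 groups by mouse; points are spread sideways in order of value. Mrgpra3 cells of Blue, Red, Control2 and Control6 had higher median counts than Tac1 cells of the same mouse, and the single Mrgpra3 cell of Control did not.

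Class markers that did not choose the cells went the same way as the labels in the mice where they had counts. Their lists were chosen with earlier results of these data known. The sum of Gal, Adcyap1, Kit and Gfra3 averaged 21.5 CPM in the Mrgpra3 group and 2280 CPM in the Tac1 group, with all 5 mice in that direction (exact p = 0.0625, n = 5). The further Mrgpra3 class markers Mrgprx1, Mrgprb4 and Mrgprb5 were sparse, at a sum of 13.3 CPM in the Mrgpra3 group and 0 in the Tac1 group. Their sum was higher in 3 of 5 mice and at 0 in both groups of Control and Control6 (exact p = 0.25, n = 5). Markers of Mrgprd neurons, a separate non-peptidergic class, summed to 35.5 and 29.8 CPM, and Mrgprd itself was detected in 3 of 36 and 1 of 86 cells. Th neuron markers summed to 16.9 and 33.6 CPM, Sst and Nppb neuron markers to 1.15 and 1.61, Trpm8 neuron markers to 0.68 and 9.19 and markers of myelinated neurons to 634 and 685. Genes shared by both classes (among them Calcb and Scn10a) summed to 1487 and 1373 CPM, fibroblast markers to 33.6 and 58.5 and erythroid markers to 38.6 and 28.3. With 5 mice the exact sign-flip permutation test cannot go below 0.0625, so that none of the 17 marker sums could pass. The lowest adjusted p was 0.708, which does not decide whether a sum differed.

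Gene by gene, 9051 genes had a mean of at least 10 CPM and were tested with limma on log2(mean CPM + 5) per mouse, with the mouse as a block and each mean weighted by its number of cells. At a Benjamini-Hochberg adjusted p under 0.05 over all of them, 1910 genes differed (21.1%): 838 were higher in the Mrgpra3 group (9.26%) and 1072 were lower (11.8%). Of the called genes 488 higher and 639 lower ones moved the same way in all 5 mice. The per-mouse means of the groups did not overlap for 879 genes (9.71%). The median absolute log2 difference over all tested genes was 0.33, so that differences of 2 or more, seen in 142 higher and 265 lower called genes, lie far from the middle of the distribution.

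The number of calls moved with the mice and the averaging. Blue and Red alone gave 2182 called genes and the 3 other mice, with 1 or 2 Mrgpra3 cells each, gave 260. Leaving out Blue gave 1271 and leaving out Red 1196, and weighting every mouse alike gave 753. Averaging log2 values over cells, in place of taking the log of the mean, gave 1999 higher and 673 lower genes, 74.8% higher against 43.9%, and shifted the median log2 difference of all genes by 0.38. Of 80 called genes named by the rule, all 80 kept their sign in the 3 mice of runs 2 to 4 and 57 of them were also called there.

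The largest differences were close to present against absent. In what follows, 5 values in a row are the means of Blue, Red, Control, Control2 and Control6 in CPM. Gda, guanine deaminase of purine breakdown (chr19:21391307-21473445, GRCm38), measured 347, 325, 905, 495 and 329 in the Mrgpra3 group and 0, 1.27, 0, 0 and 0 in the Tac1 group (log2 difference 6.02, SE 0.26, adjusted p = 1.47e-14). It had 3 counts over all 86 Tac1 cells, and the ratio of pooled counts was 249 (95% interval 84.8 to 1212). Moxd1, a monooxygenase related to dopamine beta-hydroxylase (chr10:24223517-24302790), measured 198, 214, 147, 142 and 142 in the Mrgpra3 group and had no count in any Tac1 cell, at least 134-fold higher against a floor of 3 counts over the group. Cav1, which encodes the membrane coat protein caveolin-1 (chr6:17306335-17341452), was likewise at 0 in the Tac1 group and at 177, 169, 147, 191 and 149 in the Mrgpra3 group, at least 115.3-fold higher. None of these genes overlapped between groups in any mouse.

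Acpp, the prostatic acid phosphatase that makes adenosine from AMP at the surface of sensory neurons (chr9:104288251-104337748), measured 961, 908, 587, 954 and 985 in Mrgpra3 cells and 19.9, 22.7, 9.52, 10.8 and 0 in Tac1 cells (log2 difference 5.33, SE 0.20, adjusted p = 1.26e-15). Synpr, the vesicle protein synaptoporin, stood at 568, 525, 342, 423 and 322 and 15.8, 11.3, 22.7, 0 and 8.06 (log2 difference 4.94). Ctxn3, cortexin 3, averaged 301 ± 37.2 CPM in the Mrgpra3 group (SD, n = 5 mice) and was detected in 2 of 86 Tac1 cells. Tmem45b, a transmembrane protein, and Tns1, a tensin of focal adhesions, followed at log2 differences of 5.50 and 4.81. The smallest adjusted p of all belonged to Rgs4, a brake on G protein signalling (chr1:169741477-169747642), at 3560.1, 3531, 3376, 3824 and 3188 against 178, 221, 397, 187 and 122.6 (log2 difference 4.12, SE 0.10, adjusted p = 1.62e-19). Fxyd2, the gamma subunit of the sodium pump, and Lxn, the carboxypeptidase inhibitor latexin, came next at log2 differences of 3.01 and 3.82, and all 36 Mrgpra3 cells had both.

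On the Tac1 side the leading gene was Adcyap1, which encodes the neuropeptide PACAP (chr17:93199017-93206537). It measured 1585, 1581, 819, 1044 and 1533 in the Tac1 group and 14.1, 14.9, 0, 11.8 and 0 in the Mrgpra3 group (log2 difference −6.46, SE 0.19, adjusted p = 9.11e-18), and was detected in 85 of 86 and 14 of 36 cells. Kit, the receptor of stem cell factor (chr5:75574916-75656722), measured 347, 357, 354, 405 and 355 in Tac1 cells and 0, 1.56, 0, 0 and 25.3 in Mrgpra3 cells (log2 difference −5.86, SE 0.27, adjusted p = 2.97e-14), and the 36 Mrgpra3 cells held 2 Kit counts in all. Gal, which encodes the peptide galanin (chr19:3409915-3414544), measured 233, 255, 90.98, 159 and 374 in the Tac1 group and had no count in the Mrgpra3 group, at least 97.7-fold lower there. Fxyd7, another regulator of the sodium pump, and Kcnc4, the potassium channel Kv3.4, were also at 0 in all 36 Mrgpra3 cells, at least 88.2-fold and 72.5-fold lower. Fxyd2 and Fxyd7, 2 members of 1 family of pump regulators, thus lay on opposite sides of the comparison.

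Gpx3, a secreted glutathione peroxidase, measured 407, 480.0, 479, 351 and 425 in Tac1 cells and 5.11, 6.02, 24.5, 0 and 0 in Mrgpra3 cells (log2 difference −5.46, SE 0.23, adjusted p = 8.56e-15). Atp2b4, a calcium pump of the plasma membrane, measured 483, 534, 343, 585 and 594 and 11.4, 6.02, 0, 0 and 41.1 (log2 difference −5.30). Celf4, an RNA-binding protein of neurons, had the smallest adjusted p among lower genes, with 1083 to 1731 CPM per mouse in the Tac1 group and 147 to 281 in the Mrgpra3 group (log2 difference −2.71, SE 0.10, adjusted p = 9.41e-16). Unlike Kit or Gal it was expressed in both groups, in 33 of 36 Mrgpra3 cells and all 86 Tac1 cells.

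**Figure D3:**
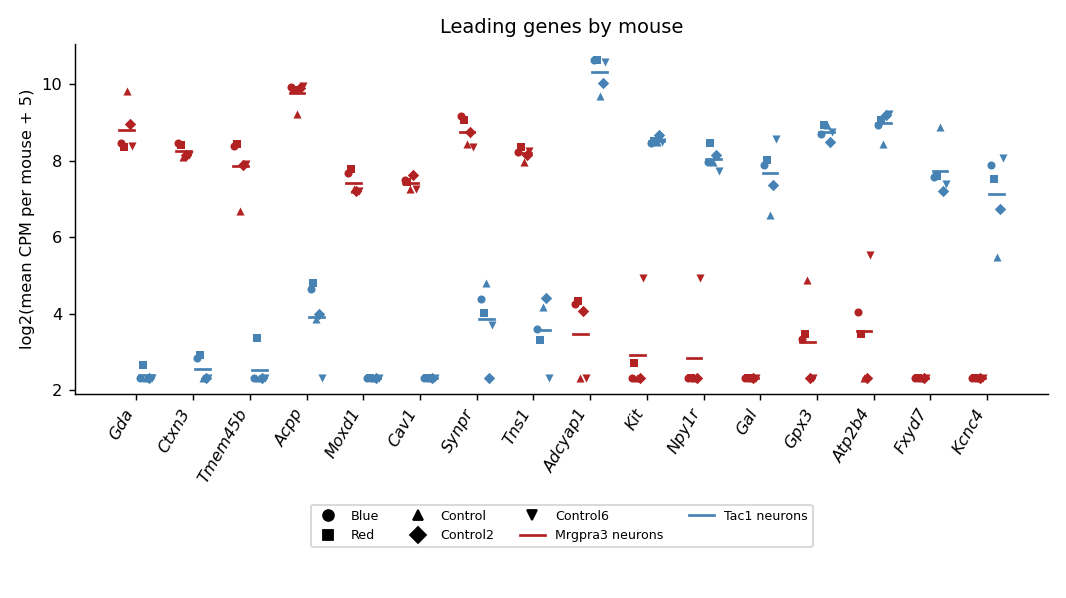
Mean CPM per mouse, as log2(mean CPM + 5), of the 16 genes with the largest differences, 8 in each direction, in the 2 groups; marker shapes give the 5 mice and the line the mean over mice. The groups do not overlap for any of the 16 genes.

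The list of receptors for itch and inflammatory mediators, which also holds the kinase Jak1 and the GDNF co-receptor Gfra1, was split between the classes. Of its 21 tested members, 9 were higher in the Mrgpra3 group, 8 were lower and 4 did not pass, against 21.1% of all genes called. Gfra1 and Lifr are counted again among the growth factor receptors below. Hrh1, the histamine H1 receptor (chr6:114397936-114483296), measured 103.4, 86.01, 48.9, 85.3 and 56.9 in the Mrgpra3 group and 1.74, 0, 0, 0 and 0 in the Tac1 group. It was detected in 32 of 36 Mrgpra3 cells and 2 of 86 Tac1 cells, with a ratio of pooled counts of 92.8 (95% interval 25.2 to 773). Gfra1, the GDNF co-receptor, measured 441, 464, 342, 504 and 294 against 31.7, 23.8, 13.5, 19.5 and 16.1 (log2 difference 3.87, SE 0.18, adjusted p = 5.37e-14). Jak1, the kinase that relays cytokine receptors, stood at 549.6 to 761 against 151 to 318 CPM per mouse (log2 difference 1.42, SE 0.12, adjusted p = 1.96e-09), and the cytokine receptor subunit Il6st was also higher, at a log2 difference of 0.86.

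Osmr, the oncostatin M receptor, measured 100.9, 98.3, 0, 96.4 and 88.4 in the Mrgpra3 group and 36.6, 20.9, 26.7, 16.2 and 13.6 in the Tac1 group (log2 difference 1.61, SE 0.33, adjusted p = 0.00061). The single Mrgpra3 cell of Control had no Osmr count, and without Red the adjusted p was 0.0738 at a log2 difference of 1.30. Its partner in the IL-31 receptor, Il31ra, was under the filter, with counts in 2 of 36 and 3 of 86 cells. The prostaglandin D2 receptor Ptgdr was higher (log2 difference 1.77), whereas the prostacyclin receptor Ptgir and the prostaglandin E2 receptor Ptger4 were lower (−0.82 and −1.74). S1pr3, a receptor of sphingosine 1-phosphate linked to pain and itch, measured 18.4, 32.3, 0, 24.1 and 107.5 in the Mrgpra3 group and 364, 363, 240.1, 383 and 261 in the Tac1 group (log2 difference −3.57, SE 0.24, adjusted p = 2.34e-11). The serotonin receptor Htr1a was at 0 in all Mrgpra3 cells, at least 15.96-fold lower. Ednrb, also in this list, is a satellite glia marker as well, so that its value in a cell with glial RNA cannot be assigned to the neuron.

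Of 13 Mas-related receptor genes only 3 reached the filter, apart from Mrgpra3 itself. Mrgpra2a and Mrgpra2b, relatives of Mrgpra3 with closely similar sequence, were higher at log2 differences of 1.69 and 1.75. Of their low values 62.7% and 61.5% were fractional, so that reads may be divided between near-identical genes and both are uncertain. They were also not past the threshold without cells high in glial markers, in the 10 Mrgpra3 cells and 2 mice that remain. Mrgprx1, the receptor of the peptide BAM8-22 in these neurons, was not tested. It had counts in 9 of 36 Mrgpra3 cells and 0 of 86 Tac1 cells, at least 5.70-fold higher over the group, and Mrgprb4 had counts in 2 of 36 and 0 of 86 cells.

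Of 7 tested signalling genes downstream of such receptors, 4 were higher in the Mrgpra3 group and 1 lower, against 21.1% of all genes called. Gna14, a G protein alpha subunit of the Gq family (chr19:16435762-16610820), measured 318, 316, 196, 206 and 275 against 55.2, 82.8, 51.8, 32.4 and 0 (log2 difference 2.34, SE 0.25, adjusted p = 1.22e-07). Plcb3, the phospholipase C that histamine signalling uses in sensory neurons (chr19:6952325-6976470), measured 251, 287, 563, 253 and 297 against 146, 100.4, 55.6, 78.7 and 119.1 (log2 difference 1.23, SE 0.17, adjusted p = 5.12e-06). Gnaq was higher by 0.66 but in 3 of 5 mice only, and its adjusted p was 0.166 without weights. Plcb1, another phospholipase C, was lower (log2 difference −2.06, SE 0.35, adjusted p = 8.25e-05), so the 2 isoforms lay on opposite sides. Nmb, which encodes the itch peptide neuromedin B, was higher at a log2 difference of 0.69, in 3 of 5 mice.

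Among peptides, the Tac1 group carried 3 that the Mrgpra3 group nearly lacked. Of 7 tested neuropeptide genes Nmb was higher and Adcyap1, Gal and Cartpt were lower, against 9.26% and 11.8% of all genes. Cartpt, the gene of the CART peptide, measured 144, 222, 222, 133 and 827 in Tac1 cells and 0, 1.62, 0, 0 and 0 in Mrgpra3 cells, where 1 count was found in all (ratio of pooled counts 324, 95% interval 57.8 to 12818). Calcb, the gene of the second form of CGRP, measured 489.8, 403, 147, 282 and 429.9 and 538, 471, 336, 209 and 465 and did not pass the test (log2 difference −0.18, SE 0.12, adjusted p = 0.336).

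Proteins of the dense-core granule, which stores and releases peptides, changed in both directions. Of 17 tested genes 7 were higher and 5 lower, against 9.26% and 11.8% of all genes. Scg3, secretogranin III (chr9:75643189-75684056), measured 1461, 1384, 1884, 1643 and 1039.6 in the Mrgpra3 group and 293, 249.5, 226, 317 and 205 in the Tac1 group (log2 difference 2.39, SE 0.09, adjusted p = 1.84e-15). Scg2, secretogranin II, went the other way, at 519, 458, 440.3, 540.4 and 1133 and 1644, 1661, 1661, 1365 and 1112 (log2 difference −1.64, SE 0.12, adjusted p = 1.09e-10), in 4 of 5 mice. Syt7, a calcium sensor of release, was higher (log2 difference 1.84, SE 0.12, adjusted p = 8.28e-12), and so were the processing enzymes Cpe and Pcsk2 (log2 differences 1.19 and 1.75). Pam, the enzyme that amidates peptides such as substance P and CGRP, was lower (log2 difference −1.16, SE 0.13, adjusted p = 2.27e-07), as were the granins Chgb and Vgf (−2.15 and −1.10).

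Promoters of the named genes were searched for the cAMP response element TGACGTCA, the binding site of CREB, which is a palindrome and so reads the same on both strands. Of 90 named genes 63 had a promoter in the RefSeq table (GRCm38.p6), and 3 held the element in the 250 bases before the start that this table gives: Scg2, Btg2 and Cartpt, all lower in the Mrgpra3 group. They are shown because they are the named genes with this element, 30 bases each, 5′ to 3′ on the minus strand, with the element in capitals.
Scg2, chr1:79440076-79440105: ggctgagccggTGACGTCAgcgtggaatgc
Btg2, chr1:134079303-134079332: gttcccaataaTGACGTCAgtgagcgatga
Cartpt, chr13:99900777-99900806: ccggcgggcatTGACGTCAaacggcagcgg
By the GENCODE coordinates the printed bases of Scg2 and Cartpt lie inside the gene and only those of Btg2 lie outside it. The element was in 1.55% of all 32851 promoters in the table, in 2.79% of the 9305 promoters of tested genes, in 2.03% of those of called higher genes and in 2.23% of those of called lower genes. A match is a description of the sequence, not a bound site.

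Of 11 tested sodium channel genes 5 were higher in the Mrgpra3 group and 5 lower, against 9.26% and 11.8% of all genes. Scn11a, the gene of Nav1.9, which sets resting excitability in small neurons (chr9:119753759-119825456), measured 1186, 1230.4, 1076, 1313 and 945 in the Mrgpra3 group and 461, 381, 199, 188 and 386 in the Tac1 group (log2 difference 1.61, SE 0.12, adjusted p = 1.38e-10). Scn10a, which drives the Cre of these mice (chr9:119608456-119719322), measured 807, 836, 563, 1046 and 701 against 491, 446, 428, 497 and 300.4 (log2 difference 0.83, SE 0.10, adjusted p = 3.88e-07), with the Mrgpra3 group higher in 5 of 5 mice (exact two-sided sign-flip p = 0.0625). The beta subunit Scn3b was higher too (log2 difference 1.51, SE 0.16, adjusted p = 1.40e-07).

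Scn9a, the gene of the pain channel Nav1.7, was called higher by a small difference: 674, 661, 905, 565 and 967 against 503, 523, 569, 597 and 549 (log2 difference 0.38, SE 0.09, adjusted p = 0.00378). The call was lost in 6 of 22 alternatives. Among these, the adjusted p was 0.0710 without Blue and 0.0557 in a fit without the mouse as a block, which also used only means of at least 3 cells. Scn3a, an embryonic channel that adult neurons can retain, had 1 of 36 Mrgpra3 cells with a count and 32 of 86 Tac1 cells (log2 difference −3.05). The sensory channels Nav1.9 and Nav1.8 thus lay on the Mrgpra3 side, and Scn3a, Scn2a, Scn7a and Scn2b were among those on the Tac1 side. Averaging log2 values over cells gave 5 higher and 3 lower sodium channel genes.

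**Figure D4:**
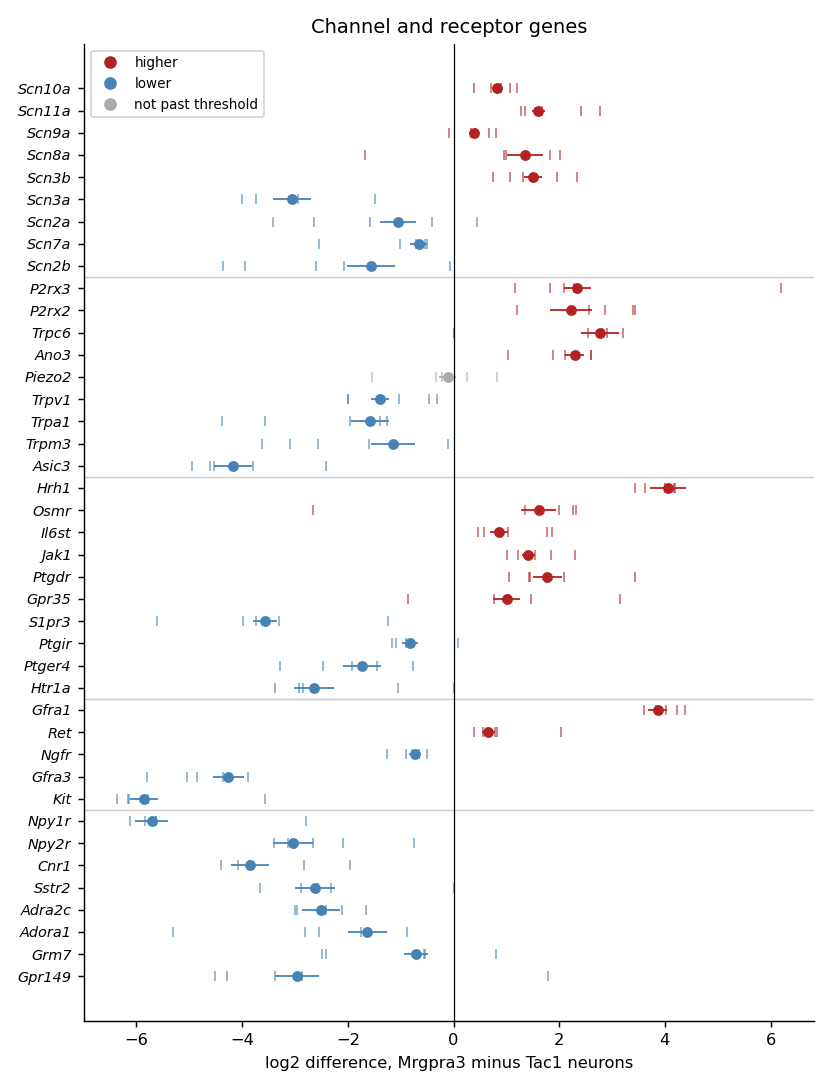
Log2 difference, Mrgpra3 minus Tac1 group, for 41 channel and receptor genes in 5 sets; points are estimates with bars of ±1 SE, ticks are single mice, red is called higher, blue called lower and grey not past the threshold. Scn11a and Scn10a lie to the right and Asic3, Trpv1 and Cnr1 to the left.

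Channels that sense heat, irritants, acid and ATP also divided the classes. Of 22 tested members 8 were higher, 4 lower and 10 not past the threshold, against 21.1% of all genes called. Trpv1, the receptor of capsaicin and heat (chr11:73234292-73261242), measured 138, 224, 97.9, 191 and 249 in the Mrgpra3 group and 564, 465, 403, 264 and 309.9 in the Tac1 group (log2 difference −1.39, SE 0.17, adjusted p = 6.42e-07). It was nonetheless detected in 34 of 36 Mrgpra3 cells. Trpa1, the irritant receptor, was lower at 21.1, 26.5, 0, 0 and 0 against 63.1, 70.7, 98.7, 14.6 and 54.6 (log2 difference −1.57, SE 0.36, adjusted p = 0.00194), and a mean of log2 values over cells gave −0.02 with an adjusted p of 0.967, so that its call depends on the averaging. It was detected in 16 of 36 Mrgpra3 and 27 of 86 Tac1 cells.

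P2rx3, an ATP-gated channel (chr2:84998583-85037462), was on the other side, at 358, 363, 147, 363 and 253 against 80.1, 70.5, 37.7, 0 and 109.4 (log2 difference 2.34, SE 0.26, adjusted p = 1.59e-07). P2rx2, which forms channels together with P2rx3, was found in 20 of 36 and 2 of 86 cells and was higher too (log2 difference 2.22). Trpc6, a calcium-permeable channel, was found in 28 of 36 and 1 of 86 cells (log2 difference 2.77, SE 0.36, adjusted p = 2.10e-06). Asic3, an acid-sensing channel (chr5:24413392-24417835), was at 0 in all 36 Mrgpra3 cells and measured 64.5, 117.6, 148, 110.2 and 21.7 in the Tac1 group, at least 55.5-fold lower. The touch channel Piezo2 measured 138, 129.7, 489, 215 and 72.6 and 115.7, 164, 274, 249.6 and 221 and did not pass the test (log2 difference −0.11, SE 0.16, adjusted p = 0.722). Its direction changed with the averaging, to 1.75 with an adjusted p of 7.53e-07 for the mean of log2 values.

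Potassium and HCN channels gave 10 higher and 15 lower genes of 43 tested, against 9.26% and 11.8% of all genes. Kcnip4, a partner of the A-type Kv4 channels (chr5:48389502-49524907), measured 541, 439.5, 416, 431 and 395 against 42.8, 58.04, 107.96, 19.96 and 59.5 (log2 difference 3.14, SE 0.17, adjusted p = 8.78e-13), and Kcnd1 and Dpp10 of the same channel complexes were higher as well (log2 differences 1.36 and 2.95). Kcnk18, the leak channel TRESK, was detected in 32 of 36 Mrgpra3 cells and in 1 of 86 Tac1 cells, and other leak channels showed the reverse. Kcnk3, the gene of TASK-1, measured 0, 2.37, 0, 0 and 0 in the Mrgpra3 group and 93.3, 121.2, 42.7, 139.7 and 238 in the Tac1 group, and Kcnk2, the gene of TREK-1, was at 0 in all Mrgpra3 cells, at least 25.1-fold lower. The balance of the list moved with the averaging, to 14 higher and 12 lower genes for the mean of log2 values.

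Voltage-gated calcium channel genes were lower in the Mrgpra3 group for 6 of 12 tested, with 2 higher and 4 not past the threshold, against 11.8% lower and 9.26% higher of all genes. Cacna2d1, the subunit that gabapentin binds (chr5:15934691-16374511), measured 287, 286, 318, 253 and 322 against 580.3, 793, 675, 456 and 757 (log2 difference −1.21, SE 0.11, adjusted p = 7.12e-09). Cacng2, known as stargazin, went the other way, at 102.7, 80.99, 147, 48.2 and 91.7 against 1.32, 5.80, 4.98, 0 and 0 (log2 difference 3.56, SE 0.34, adjusted p = 1.75e-08). Cacnb4, a beta subunit, was lower (log2 difference −2.39, SE 0.32, adjusted p = 3.36e-06), although 15.99% of its exon bases are shared with the antisense transcript A430018G15Rik and the sources used here do not give the strand of counting. The T-type channel gene Cacna1h and the N-type gene Cacna1b were lower (log2 differences −2.01 and −0.77).

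Growth factor receptors also separated. Of 10 tested genes 2 were higher, both of the GDNF system, and 6 were lower, against 9.26% and 11.8% of all genes. Ret, the GDNF family kinase, measured 841, 674, 440.3, 783 and 477 against 487, 517, 248, 188 and 323 (log2 difference 0.66, SE 0.13, adjusted p = 0.000293), beside its co-receptor Gfra1 described above. Gfra3, the co-receptor of artemin, measured 4.93, 9.44, 0, 0 and 0 against 199.9, 209, 272, 139 and 161 (log2 difference −4.26, SE 0.30, adjusted p = 6.56e-11). Ngfr, the shared neurotrophin receptor p75, was lower (log2 difference −0.74), and Kit is described above.

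Of a list of 26 inhibitory and analgesic-target receptors, 11 were tested. Of these, 8 were lower in the Mrgpra3 group and 0 higher, against 11.8% and 9.26% of all genes. Members at or near 0 in the Mrgpra3 group, such as Npy1r, Cnr1, Npy2r and Sstr2, passed the filter only through their level in the Tac1 group. The filter thus helped to set these counts and the list median. The list median was −2.51 against −0.07 over all genes. With the mean of log2 values the counts were 6 and 0. Npy1r, a receptor of neuropeptide Y (chr8:66697192-66706792), measured 0, 0, 0, 0 and 25.3 against 243, 344, 243, 279 and 205 (ratio of pooled counts 363, 95% interval 64.8 to 14349, from 1 count in the Mrgpra3 group). Cnr1, the cannabinoid receptor CB1 (chr4:33924593-33948831), was at 0 in all 36 Mrgpra3 cells and measured 68.2, 79.3, 30.5, 14.6 and 100.9 in the Tac1 group, at least 33.1-fold lower. The somatostatin receptor Sstr2 was at 0 as well, at least 10.5-fold lower. Npy2r, the adenosine receptor Adora1 and the adrenergic receptor Adra2c were lower (log2 differences −3.04, −1.63 and −2.51). Oprm1, the mu opioid receptor, was under the filter, with counts in 4 of 36 Mrgpra3 and 19 of 86 Tac1 cells.

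Among 11 tested glutamate and GABA genes 2 were higher and 3 lower, against 21.1% of all genes called. Gria1, an AMPA receptor subunit, measured 0, 2.20, 0, 0 and 0 against 84.4, 84.8, 45.7, 178 and 209, with a ratio of pooled counts of 33.9 (95% interval 11.4 to 167). Grin3a, an NMDA receptor subunit, was lower (log2 difference −3.63, SE 0.32, adjusted p = 5.24e-09). Slc12a2, the chloride importer NKCC1, was higher at 133, 184, 122.3, 144 and 149 against 54.7, 69.1, 83.5, 125.9 and 21.7 (log2 difference 1.26, SE 0.19, adjusted p = 2.09e-05), and its adjusted p was 0.0635 without weights. Slc17a6, the vesicular glutamate transporter VGLUT2, measured 291, 344, 294, 388 and 424 and 309, 295, 277, 379 and 282 and did not pass (log2 difference 0.10, SE 0.12, adjusted p = 0.627).

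Transcription factors of the sensory lineage distinguished the groups, with 7 of 27 tested higher and 10 lower, against 21.1% of all genes called. Casz1, a zinc finger factor (chr4:148804429-148954889), measured 212, 233, 196, 253 and 129.5 against 3.30, 15.02, 34.4, 10.8 and 0 (log2 difference 4.09, SE 0.27, adjusted p = 2.69e-11). Etv1, an ETS factor (chr12:38779380-38870484), measured 623, 879.7, 587, 793 and 894 against 84.3, 63.2, 94.2, 0 and 0 (log2 difference 3.69, SE 0.32, adjusted p = 2.65e-09). Onecut2 and Klf5 were higher at log2 differences of 3.16 and 2.85. Zeb2, a repressor (chr2:44983632-45117395), measured 2.75, 10.6, 0, 12.3 and 15.8 against 261, 290.3, 295, 363 and 327 (log2 difference −4.64, SE 0.25, adjusted p = 4.39e-13). Runx1, which directs the itch and non-peptidergic lineages during development (chr16:92601466-92826149), was lower in the Mrgpra3 cells, at 106.3, 84.3, 73.4, 59.4 and 123.3 against 277, 309, 123.4, 552 and 446 (log2 difference −1.65, SE 0.17, adjusted p = 4.36e-08). Prrxl1 and Isl1, factors of nociceptor identity, were lower (log2 differences −1.90 and −0.67). Hoxb5 and Meis2 were at 0 in all Mrgpra3 cells, at least 12.9-fold and 7.60-fold lower.

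Of 23 tested G protein subunits and RGS proteins 10 were higher and 5 lower, against 9.26% and 11.8% of all genes. After Rgs4, Gnao1, the alpha subunit of Go, measured 3384, 3429, 3645, 2759.9 and 3216 against 1410.4, 1334, 1408, 1276 and 903 (log2 difference 1.33, SE 0.07, adjusted p = 6.03e-13), and Gnal, the alpha subunit of Golf, 824, 850.2, 758, 756 and 762 against 391, 423, 271, 337 and 272 (log2 difference 1.07, SE 0.10, adjusted p = 7.50e-09). Gnas, the alpha subunit of Gs, which raises cAMP, was lower (log2 difference −0.53, SE 0.06, adjusted p = 5.26e-07). Rgs5 measured 273, 351, 0, 23.5 and 0 against 0, 5.98, 0, 0 and 0 and was higher in 3 of 5 mice, with 0 in both groups of Control and Control6. It is also a mural cell marker, and the other mural markers Acta2, Tagln and Pdgfrb were each at or under 1.19 CPM in both groups.

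Kinases and calcium-binding proteins changed in both directions, 9 higher and 8 lower of 24, against 21.1% of all genes called. Rcan2, a calcineurin inhibitor, was higher at 477, 383, 220.2, 497 and 319 against 75.5, 65.4, 53.8, 27.04 and 45.9 (log2 difference 2.58, SE 0.17, adjusted p = 1.53e-11), and Ppp3ca, the catalytic subunit of calcineurin itself, was lower at 1539, 1716, 1321, 1227 and 1516 against 2976, 3260.3, 2514, 2648 and 3461 (log2 difference −0.96, SE 0.07, adjusted p = 7.09e-11). Protein kinase C isoforms were split: Prkca and Prkcd were higher (log2 differences 2.02 and 1.14), and Prkcb had 2 counts over the 36 Mrgpra3 cells against 52 of 86 Tac1 cells detected. Pcp4, a calmodulin regulator, was at 0 in all Mrgpra3 cells and detected in 37 of 86 Tac1 cells, at least 45.2-fold lower. It shares 23.7% of its exon bases with Igsf5.

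Of structural and vesicle genes, 10 of 18 cytoskeletal and 15 of 30 vesicle genes were not past the threshold, so that 8 and 15 were called, against 21.1% of all genes. Nefl, the light neurofilament, measured 1039, 935, 538, 1258 and 821 against 486, 405, 565, 645 and 598 (log2 difference 1.06, SE 0.10, adjusted p = 1.96e-08), and it shares 32.8% of its exon bases with Nefm. Nefh, the heavy neurofilament of myelinated neurons, was lower at 66.7, 72.6, 24.5, 36.5 and 0 against 80.7, 132, 290.3, 164 and 308 (log2 difference −1.01, SE 0.34, adjusted p = 0.0352). Its adjusted p was 0.136 without Red, 0.0987 without Control and 0.0634 without Control2. The call was lost with the sign kept in 10 of 22 alternatives. It was also lost without cells high in glial markers, in 2 mice, where the log2 difference turned to 0.19. Map2, a dendritic microtubule protein, was lower (log2 difference −3.08, SE 0.25, adjusted p = 1.19e-09), and Tubb2b was higher by 0.66 with 44.5% of its low values fractional. Snap25, of the release machinery, measured 329, 276, 269, 456 and 171 against 747, 790.4, 863, 928 and 918 (log2 difference −1.39, SE 0.11, adjusted p = 1.08e-09), and Syt2, the fast calcium sensor of release, was at 0 in all Mrgpra3 cells, at least 37.5-fold lower.

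Adhesion and guidance genes were more often lower, with 15 of 36 tested lower and 7 higher, against 11.8% and 9.26% of all genes. With the mean of log2 values, however, the list counts were 9 and 11. Plxnc1, a semaphorin receptor (chr10:94790866-94944835), measured 769, 913, 685, 852 and 704 against 132, 122.8, 139, 64.8 and 61.6 (log2 difference 2.75, SE 0.13, adjusted p = 8.29e-14). Ptprt, an adhesive receptor phosphatase, went the other way, at 42.7, 41.998, 0, 12.3 and 50.6 against 430.2, 524, 98.9, 574 and 719 (log2 difference −3.49, SE 0.20, adjusted p = 1.35e-12). The semaphorin co-receptor Nrp1 was higher (log2 difference 1.75, SE 0.14, adjusted p = 5.63e-10). Nrxn3, a presynaptic organiser, was lower (log2 difference −2.12).

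Immediate early genes, which activity and dissociation induce within minutes, were mostly lower in the Mrgpra3 group. Of 18 tested members of the list, heat shock genes included, 10 were lower and 2 higher, against 11.8% and 9.26% of all genes. Jun measured 106.5, 113.3, 122.3, 24.1 and 66.4 against 569, 532, 242, 612 and 681 (log2 difference −2.39, SE 0.18, adjusted p = 2.17e-10), with no overlap between groups. Btg2, an antiproliferative early gene whose element is printed above, measured 12.95, 4.66, 0, 0 and 0 against 73.98, 35.7, 11.01, 152 and 13.6 (log2 difference −2.23, SE 0.37, adjusted p = 5.33e-05), and Fos was lower in 4 of 5 mice (log2 difference −1.30, SE 0.24, adjusted p = 0.000215). Egr1 was lower in 4 of 5 mice (log2 difference −1.60, SE 0.28, adjusted p = 0.000115), but in Control6 the Mrgpra3 cells had 133 CPM against 30.8, and its adjusted p was 0.349 without weights. Without weights 2 genes of the list were lower and 0 higher. The higher ones with weights were Hspa8 and Hspa1b, both heat shock genes. Dnajb1, another heat shock gene, was among the lower ones.

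The 31 nuclear genes of oxidative phosphorylation served as a set in wide use by all cells. Of them 4 were lower, 0 higher and 27 not past the threshold, 12.9% called against 21.1% of all genes. The 4 differences were small. Cox6c measured 402, 485, 391, 460.5 and 369.8 against 624, 600.3, 729, 760.1 and 504 (log2 difference −0.49, SE 0.10, adjusted p = 0.000699), and without Blue its adjusted p was 0.0576. Atp5b had a log2 difference of −0.35 with an adjusted p of 0.0115, and without Red that p was 0.156.

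List medians were set against the median log2 difference of −0.07 over all tested genes. Of those that kept their sign in all 22 alternatives, inhibitory and analgesic-target receptors had −2.51 (−3.59 to −0.99 over the alternatives). Immediate early and heat shock genes had −0.90, calcium channels −0.65, growth factor receptors −0.54, adhesion and guidance genes −0.45 and neuropeptides −0.18. Itch signalling genes had 0.66 and TRP, Piezo, acid-sensing and ATP-gated channels 0.20. The few tested Mas-related genes kept their sign too. Some came close to turning: adhesion and guidance genes reached −0.04, and TRP, Piezo, acid-sensing and ATP-gated channels 0.002. The alternative of at least 3000 nonzero genes kept the same cells and could change no sign. The median of the other lists turned its sign in at least 1 alternative. For sodium channels it was 0.38 but −0.07 in Blue and Red alone, −0.59 without weights and −0.84 in the 3 other mice. For itch and mediator receptors it was −0.14 but 0.20 in Blue and Red alone, and for granule proteins 0.14 but −0.04 without weights. For transcription factors it was −0.37 but 0.20 without weights. G protein subunits and RGS proteins stood at 0.40 and turned only with no filter on low values, to −0.03. Genes near 0 in either group were tested only where their level in the other group passed the filter, which helped to set these medians. They describe the lists and were not tested.

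**Figure D5:**
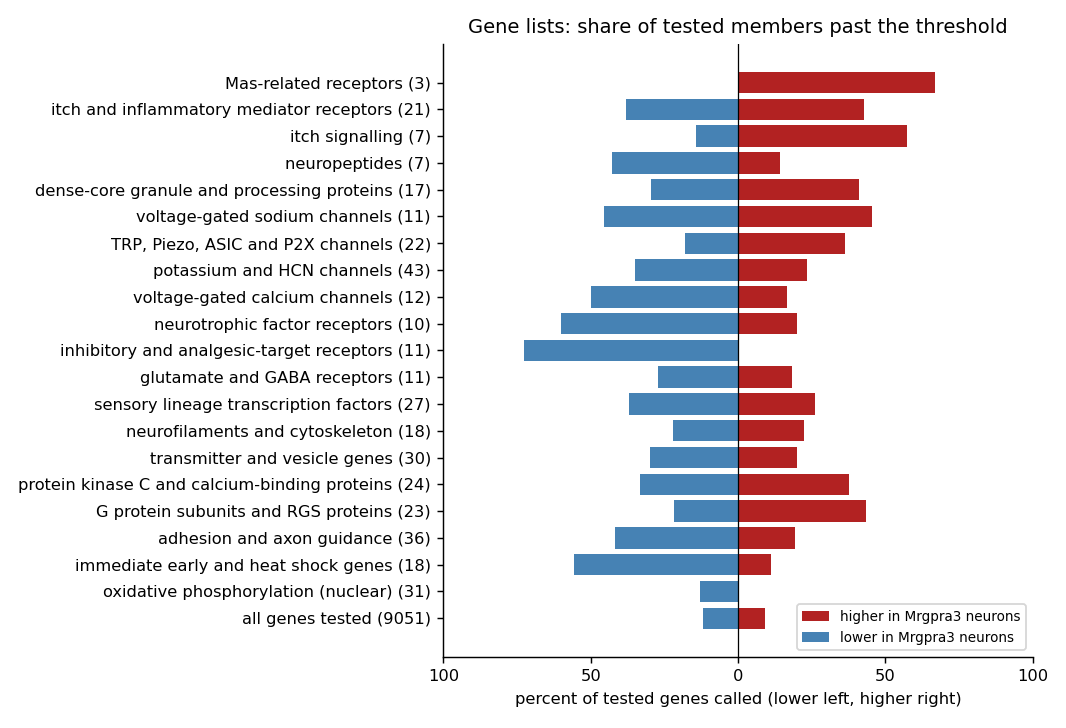
Percent of tested members of each of 20 gene lists called lower, to the left, and higher, to the right, in the Mrgpra3 group, with the number tested in brackets and all 9051 genes for comparison. Inhibitory and analgesic-target receptors have no member on the right and oxidative phosphorylation genes are the list with the smallest share called.

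The leading genes differed in how they stood in the other kept cells, which had Calca under 2000 CPM. Several genes of the Mrgpra3 side were also abundant there: Ctxn3 averaged 332 CPM in the Mrgpra3 group and 309.5 in those 232 cells, Acpp 928 and 751, Synpr 521 and 594, and Fxyd2 3983 and 3837. Others were low there: Gda averaged 18.5 CPM, Cav1 19.5, Hrh1 10.9 and Gfra1 59.8, against 360.0, 172, 90.5 and 444 in the Mrgpra3 group. On the Tac1 side Adcyap1, Gal, Npy1r and Gpx3 averaged 16.005, 3.37, 4.53 and 10.05 CPM in cells with little Calca. The 17 Calca cells of neither group had counts of some Tac1-side genes and few of others, with Kit at 525 and Asic3 at 223 CPM but Gal at 2.89 and Npy1r at 0. These are means over cells of a group that holds several classes, and they were not tested.

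The cells of each group were also split by the satellite glial RNA they carried, as a description with no test. Gda averaged 366 CPM in the 28 Mrgpra3 cells with at most 1000 CPM of satellite glia markers and 338 in the 8 cells above. Adcyap1 averaged 1604 CPM in the 56 Tac1 cells at or below that level and 1287 in the 30 above. Of the named genes with the higher mean in the Mrgpra3 group, 2 of 45 were over 1.5 times as high in its cells above that level and 3 were over 1.5 times as high in those below it, and in the Tac1 group the counts were 5 and 2 of 44. Among the genes that moved with glial RNA, chosen after their values were seen, Egr1 averaged 68.6 CPM in Tac1 cells below and 192 above, and 25.1 and 67.5 in Mrgpra3 cells. Slc12a2 averaged 39.8 and 107.4 CPM in Tac1 cells, and Zeb2 0.882 and 30.4 and Trpv1 152 and 297 in Mrgpra3 cells. The part of glial RNA in these values was not tested. Detection varied within the Tac1 group: Trpa1 was found in 27, Etv1 in 33, Pcp4 in 37, Piezo2 in 43 and P2rx3 in 51 of 86 cells, whereas Adcyap1 was found in 85 and Kit in 83. In the Mrgpra3 group, whose median cell was deeper, Gda, Acpp, Cav1, Gfra1, Rgs4 and Etv1 were found in all 36 cells.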

How the data were processed

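Single tdTomato-positive neurons of 6 mice were measured by digital RNA-seq with molecular barcodes, per the labels' protocols. STAR 2.7.3a and the build mm10 are named in the submitters' processing notes. The tables of 4 runs were used, with 0 columns left unused. Their values are a signal that the authors deposited after multiplying counts by a factor per cell that is not stated in the sources used here. Dividing each cell by the estimated value of 1 count made a median of 96.5% of low values whole within 0.1. Whole reads were taken as recovered in 252 of 394 columns and 88 of the compared cells. The other cells were divided the same way, and sums were rounded for count tests. Rn45s (7.42% of values) and 26 date-like names (0.154%) were left out, which left 24754 genes. Cells with at least 500 nonzero genes were kept, 371 of 394, and the 23 others had at most 383 counts. The labels list 400 cells.

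CPM was computed per cell and averaged per mouse and group. The design asked for mice with at least 3 cells of each group, or, where fewer than 3 mice had that, all mice with at least 1. The latter applied, so that 5 mice entered. limma 3.58.1 (R 4.3.3) fitted log2(mean CPM + 5) with the mouse as a block, a trended prior and weights equal to the number of cells. The filter was a mean of 10 CPM, and Mrgpra3, Tac1 and Calca were left out. The block pairs groups from the same mouse. In simulated data 100 of 9051 genes were changed 2-fold and another 100 were changed 4-fold. Of these 44% and 84% were recovered, and 9.86% of calls were false, above the nominal 5%. The simulation held no expression differences between mice and far fewer changed genes than the 1910 called, so these shares need not hold for the data. Marker sums and depth were tested by exact sign-flip permutation over mice. Counts of cells and intervals cover counting error only.

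The text names the 8 largest called differences each way with 20 CPM or more, up to 3 called genes per list, the 3 of smallest p each way and a fixed set of sensory genes. Other genes of a list, and Pmp22, Prx, Acta2, Tagln and Pdgfrb, are named beside their list and were chosen after their values were seen. Some genes of the lists are counted but not reported here by name. The members, gene lists and markers were chosen with earlier results of these data known. Symbols matched GENCODE vM21 (GRCm38) for 97.8% of genes, and gene coordinates are from it. Alternatives included edgeR 4.0.16 and DESeq2 1.42.0 on recovered counts, which called 1941 and 914 genes.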

Additional observations from a re-analysis of the deposited data

Results flagged for a closer look

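Among the sets of 5 per-mouse log2 differences (Mrgpra3 minus Tac1 group) of named genes, depth and marker sums, 17 had 1 mouse far from the other 4 by Dixon's test, 16.7% of the sets searched. For independent values of equal precision, chance would set apart about 1 set in 20. Here the sets share cells and the means rest on unequal numbers of cells, so the share found cannot be read against that rate. Most of the 17 involve Control, Control2 or Control6, in which the Mrgpra3 mean rests on 1 or 2 cells. No explanation of any of them was tested.

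Control6 stood apart in 5 genes. Kit was at −3.57 there and at −6.36 to −5.79 in the other mice, and Npy1r at −2.79 against −6.13 to −5.63, where the Mrgpra3 cells held the only Npy1r count of their group. Cartpt was at −7.38 against −5.51 to −4.79, and the Gq-family subunit Gna14 at 5.81 against 1.82 to 2.49. Egr1 changed sign, at 1.94 against −2.11 to −1.11.

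Control stood apart in 4 genes and 3 summed measures. Fxyd7 was at −6.55 against −5.27 to −4.88, Scg3 at 3.03 against 2.30 to 2.45, and Lxn at 1.24 against 3.58 to 4.05. Osmr changed sign, at −2.66 against 1.35 to 2.32. Recovered counts were at −0.36 against 0.95 to 1.47 and detected genes at −0.19 against 0.36 to 0.52, so that the single Mrgpra3 cell of Control was not the deeper one. The sum of Gal, Adcyap1, Kit and Gfra3 was at −8.27 against −6.71 to −6.28.

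Control2 stood apart for Btg2, at −4.97 against −2.14 to −1.68, for P2rx3, at 6.20 against 1.17 to 2.28, and for Ret, at 2.03 against 0.38 to 0.82. Its macrophage marker sum was at 1.79 against −0.72 to 0. The lymphocyte marker sum of Blue was at −0.74 and at 0 in the other 4 mice.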

How the results depend on the processing

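Against 1910 genes called (9.26% of tested genes higher and 11.8% lower), 753 were called without weights (3.44% and 4.88%), 914 by DESeq2 on recovered counts (4.52% and 5.58%) and 1259 with cells thinned to equal counts and 13 Tac1 cells left out (5.41% and 8.51%). Averaging log2 values over cells called 22.1% higher and 7.44% lower. The 3 mice of runs 2 to 4 alone gave 260 genes (1.48% and 1.42%). Leaving out each mouse in turn gave 1196 genes without Red, 1271 without Blue and up to 2085 without Control6, with 5.62% to 9.96% higher and 7.66% (7.69% without Blue) to 13.01% lower. Without the replicate block 1411 genes were called in a fit that also used only means of at least 3 cells and added Control1, and the calls of Nefh (adjusted p = 0.0965) and Scn9a were lost among named genes, which cannot be put down to the pairing alone. The cause of these changes was not tested, beyond the fewer cells, mice or counts that a setting uses.

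Piezo2, which was not called, turned from −0.11 to 1.75 with log2 values averaged, 0.064 without Red, 0.19 with stricter thresholds and 0.12 without cells high in glial markers (satellite glia and Schwann markers above 1000 CPM), where 10 Mrgpra3 cells of 2 mice remain and Nefh stood at 0.19. The log2 difference of Scn10a was 0.97 in runs 2 to 4, with an adjusted p of 0.0816. With a pseudocount of 1 the marker sums moved to 2.22 for Mrgpra3 neurons, −0.15 for Sst and Nppb neurons, −2.10 for Trpm8 neurons and 0.55 for endothelial cells. Of 80 called named genes 56 were called in every alternative that tested them and 67 in every one but runs 2 to 4, and 79 kept their sign in all. Depth limits genes near 1 count per cell, and the Mrgpra3 group rests on 36 cells, most of them from Blue and Red.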
